A study of Rattus norvegicus with 55 samples.

Results

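Genes of fatty acid oxidation and of the peroxisome were followed in rat kidney across 55 1-colour Affymetrix arrays. Members were all genes whose single platform symbol starts with a fixed set of roots (Acad, Acox, Acaa, Acat, Acsl, Acsm, Acot, Cpt, Crat, Hadh, Ech, Eci, Ehhadh, Decr, Etf, Fabp, Pex), plus Cat and Hsd17b4. Where a gene had several probe sets, the brightest on average over the 55 arrays stood for it. This gave 54 members of 4737 named genes, measured by 89 probe sets, with several probe sets for 23 members. The name pattern also took in Cptp, which carries a sphingolipid and has no part in fatty acid oxidation. A filter on dim probe sets kept 46 members for testing, and the other 8 were described by their values.

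The titles give SHR kidney (SHR commonly stands for spontaneously hypertensive rat), and the descriptions speak of Wistar-derived rats. A stage word in the description gave 13 immature, 14 young and 14 mature arrays, and a further 14 arrays carry no stage word. Age, sex, treatment and the number of animals are not in the labels. No label ties an array to an animal of its own, so a p-value here speaks only for the spread among these arrays, part of which may be technical. The labels say kidney and do not give which part of it was taken. In tissue of many cell types, fewer cells of a type and less RNA per cell cannot be told apart.

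Fatty acids entering a cell are carried by fatty acid-binding proteins, activated to acyl-CoA by synthetases, and moved into mitochondria through the carnitine shuttle, where beta-oxidation shortens them. Peroxisomes shorten very long and branched chains with enzymes of their own and pass the products on, and peroxins build the organelle and import its enzymes. Proximal tubule cells rely heavily on fatty acid oxidation for energy and are rich in both organelles, and PPAR-alpha with its partner RXR switches on many of these genes.

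The values were deposited intensities of 8799 probe sets on a linear scale, with a 2% trimmed mean of 500.2 to 500.7 on every array. Differences are given on the log2 scale after an offset of 15.82 was added, which understates changes of dim probe sets. Control probe sets split the arrays into 3 sets, called batches here although no label names one, and 42 control probe sets were used for this. In batch 1 there were 6 immature and 4 mature arrays. Batch 2 was made up of 7 immature, 6 young and 6 arrays lacking a stage word, and batch 3 of 8 young, 10 mature and 8 lacking a stage word. In batch 2 the 5S ribosomal RNA control read 318.0 to 686.5 on immature arrays and 166.1 to 278.5 on young arrays, without overlap. Its part in comparisons inside batch 2 was not tested. Mature replicates 1 and 9, both in batch 3, had a GAPDH 3'/5' ratio of 7.18 and 3.47, against 0.827 to 2.62 on the other 53 arrays. The probe set of RT1-Bb, a class II histocompatibility gene, divided the arrays at a threshold of 600, far from any value. It read 1412 to 2381 on 12 arrays and 80.1 to 263 on 43. These sets are not groups named by the study. The 12 high arrays were 3 of each stage description, all in batches 1 and 2. Summed intensity over 12 proximal tubule marker genes was 50223 to 71955 in immature kidney (median 60370) and 62425 to 90412 in young kidney (median 82903). It was 68802 to 88372 without a stage word (median 82625) and 49473 to 113175 in mature kidney (median 82928). The median was thus higher in each later group, while the mature range enclosed the immature one. Single markers went both ways, with 7 higher and 2 lower in young kidney (9.47% and 9.21% of all probe sets). The part of these markers in the results was not tested.

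Stage descriptions differed for 16 of the 46 members in limma's F test with Benjamini-Hochberg adjustment over all 6555 probe sets, against a background of 28.5% of all probe sets called. These were the binding proteins Fabp5 and Fabp3, the carnitine enzymes Cpt1a and Cpt2, the synthetase Acsl3 and the thioesterase Acot1. Of the mitochondrial enzymes Hadha, Hadh, Eci1, Decr1, Etfa and Acads were called, of the peroxisomal enzymes Acaa1b and Acox2, and of the peroxins Pex5 and Pex2. Against immature kidney, mature kidney had 4 members higher and 7 lower, against 10.3% and 14.1% of all probe sets. Young kidney had 1 higher and 8 lower (9.47% and 9.21% of all probe sets), and kidney without a stage word had 2 higher and 11 lower (12.7% and 14.4%). The median member changed by -0.12, -0.07 and -0.18 on the log2 scale in the same order, and the median probe set by 0.04 in each. These 3 comparisons share their immature arrays. When batch entered the fit as a block, the called members were 2 higher and 5 lower in mature kidney (4.97% and 7.67% of all probe sets). They were 0 higher and 4 lower in young kidney (4.52% and 4.38%), and 2 higher and 7 lower without a stage word (8.68% and 11.4%). With the block the median member changed by -0.004, -0.07 and -0.12 in the same order, and the median probe set by -0.04, 0.02 and 0.02.

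**Figure D1:**
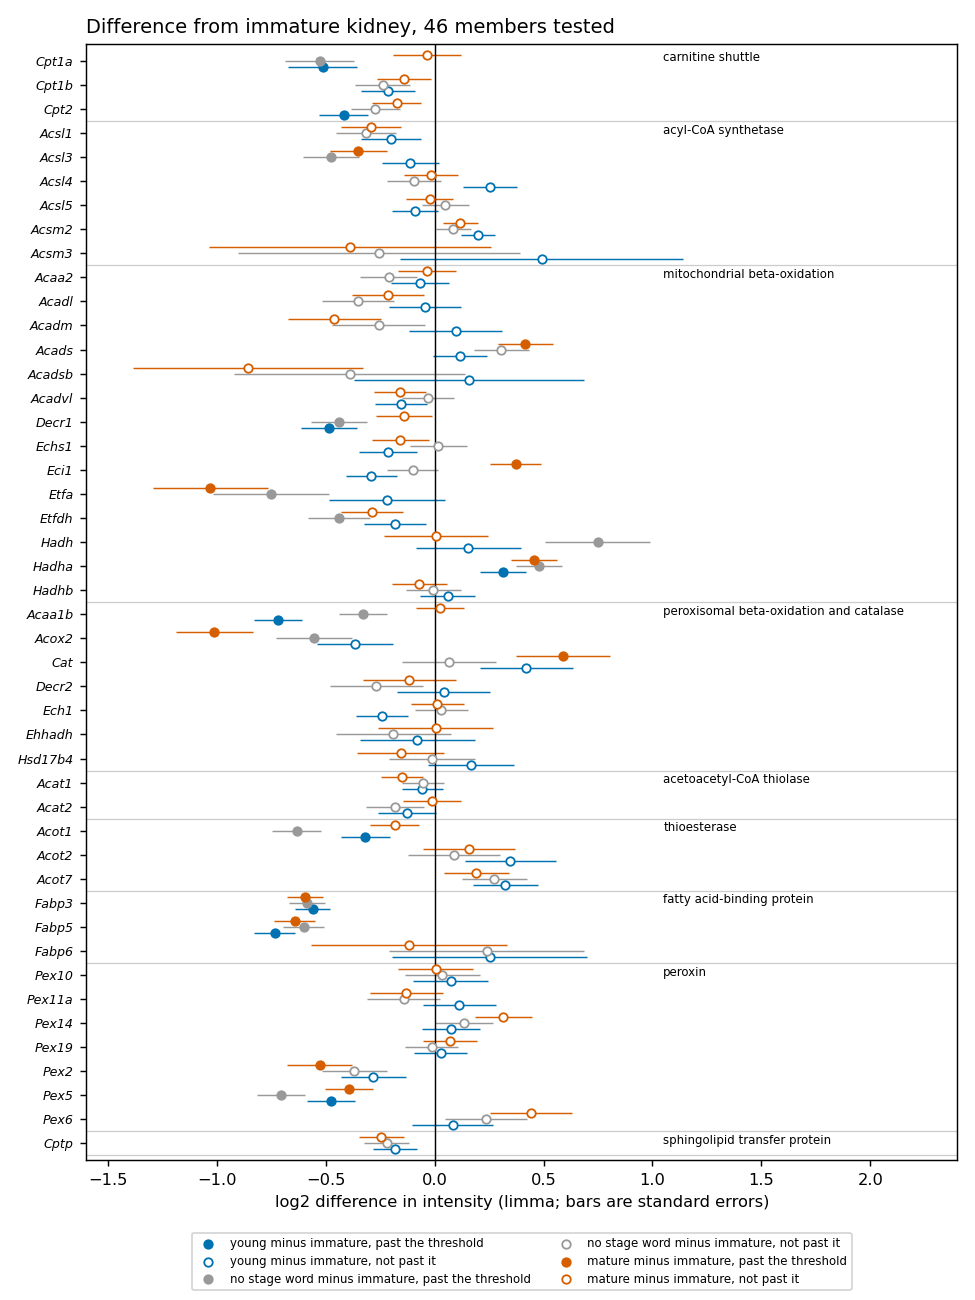
Log2 difference from immature kidney for the 46 members tested, ordered by role, with 1 point per later group; bars are standard errors from limma and filled points passed the threshold of 0.05 after Benjamini-Hochberg adjustment. Fabp3, Fabp5 and Pex5 lie left of 0 with filled points in all 3 later groups, and Hadha lies right of 0 with filled points in all 3.

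Fabp3, the heart-type fatty acid-binding protein, was lower in each later group. Its intensity was 2289 to 3339 in immature kidney (median 3012, n = 13), 1779.9 to 2298 in young kidney (median 1911, n = 14), 1535 to 2266 without a stage word (median 1895, n = 14) and 1506 to 3164 in mature kidney (median 1843, n = 14). All 14 arrays without a stage word, 13 of 14 young arrays and 12 of 14 mature arrays lay below the lowest immature array. The 2 mature exceptions were replicate 5 at 2591 and replicate 9 at 3164, and the latter is one of the 2 arrays of high GAPDH ratio. Fabp3 in the group without a stage word was the only member whose values did not overlap those of immature kidney (background 1.22% of probe sets). It fell 1.51-fold in mature kidney (log2 difference -0.59 ± 0.08 SE, limma adjusted p = 1.89e-07), by 0.56 on the log2 scale in young kidney (adjusted p = 1.44e-06) and by 0.59 without a stage word (adjusted p = 2.54e-07).

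Fabp5, the epidermal-type binding protein, was also highest in immature kidney, with young kidney lowest. It read 567 to 1351 in immature kidney (median 942), 403 to 658 in young kidney (median 538), 477 to 739 without a stage word (median 616) and 451 to 886 in mature kidney (median 575). Every later array lay below the immature median, yet each later group overlapped immature kidney, whose lowest array read 567 and the next 762. The fall was 1.66-fold in young kidney (log2 -0.73 ± 0.09 SE, limma adjusted p = 6.73e-08), 1.56-fold in mature kidney (adjusted p = 6.94e-07) and 1.52-fold without a stage word (adjusted p = 2.62e-06). Both genes stayed called with batch as a block, at -0.54 for Fabp3 and -0.52 for Fabp5 in mature kidney. Inside batch 2, Fabp3 fell by 0.57 and Fabp5 by 0.76 on the log2 scale in young against immature kidney (limma adjusted p = 3.24e-05 and 1.84e-06). Inside batch 1, with 4 mature and 6 immature arrays, the differences were -0.49 and -0.32 and did not pass the threshold. Of 8 markers for distal nephron and collecting duct cells, 4 fell and 1 rose in mature kidney, and their summed intensity was 12350 to 18364 in immature and 8544 to 12170 in mature kidney. The part of these cells in the fall of both binding proteins was not tested.

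**Figure D2:**
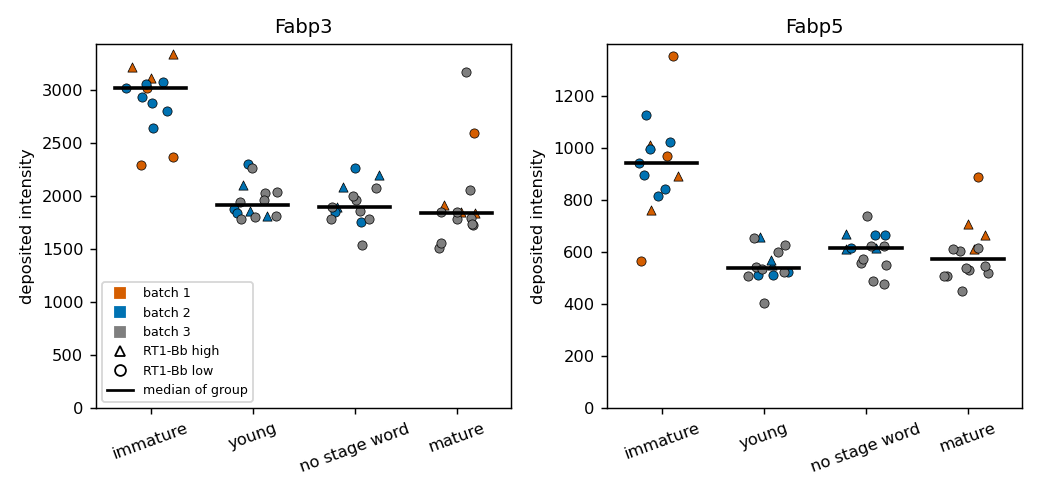
Deposited intensity of Fabp3 and Fabp5 on each of the 55 arrays by stage description, coloured by batch and shaped by RT1-Bb set, with the group median as a line. Immature arrays lie highest for both genes, with medians of 3012 and 942, and arrays of different batches mix within the later groups.

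The 250 bases before the Fabp3 start in RefSeq (GRCr8, chr5:147935875-147936124, plus strand) are shown because Fabp3 had the smallest F test p-value of the members with a promoter in the table. They hold 65.6% G and C, against a median of 51.2% over all promoters in the table, and no copy of AGGTCA, the half-site of nuclear receptors such as PPAR and RXR, on either strand.
Fabp3: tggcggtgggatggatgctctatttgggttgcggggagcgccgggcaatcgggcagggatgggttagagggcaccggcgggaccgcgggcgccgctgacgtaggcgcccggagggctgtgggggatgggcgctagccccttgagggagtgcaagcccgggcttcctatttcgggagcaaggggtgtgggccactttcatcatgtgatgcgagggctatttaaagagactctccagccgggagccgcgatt

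The remaining binding proteins were dim or were not called over all arrays. Fabp6, the ileal bile acid-binding protein, read 0 on mature replicate 12 and 10155 and 11799 on mature replicates 9 and 1, while its other probe set averaged 16.6. No stage comparison of Fabp6 passed the threshold over all arrays, while inside batch 2 it was higher than in immature kidney in young kidney (0.25, limma adjusted p = 0.0355) and without a stage word (0.34, adjusted p = 0.00385). Fabp1, Fabp2, Fabp4, Fabp7, Fabp9 and Fabp12 fell below the filter, with medians of 5.5 to 18.3 over the 55 arrays. Fabp4, the binding protein of fat cells, read 375.7 and 284.5 on immature replicates 1 and 4 and at most 99.8 on every other array. On the same 2 arrays the brown fat marker Ucp1 read 1533.4 and 546.5 (15.3 to 220.1 elsewhere) and Cidea 594.3 and 444.6 (61.7 to 226.7 elsewhere), and Cfd 358.3 and 47.9 (at most 41.7 elsewhere). The other fat markers on these arrays, Plin1 (7.5 and 23.7), Lipe (774.8 and 1010.8), Lpl (977.3 and 705.5) and Lep (3329.6 and 3369.8), lay within their ranges elsewhere, and the part of fat tissue in the Fabp4 values was not tested.

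Fabp1, the liver-type protein, was the only member whose promoter in the table held a direct repeat of the half-site AGGTCA spaced by 1 base (DR1, the element PPAR and RXR bind as a pair), with the fourth base of each half-site left free. RefSeq promoters were found for 43 of the 54 members. This relaxed DR1, searched on both strands from 250 bases before to 50 after each start, matched 1 of these 43 genes and 0.415% of the 33469 promoters in the table. The strict DR1, with AGGTCA in both half-sites, is contained in it and matched 0 members and 0.054% of promoters. The single half-site AGGTCA, which also counts copies inside the longer motifs, matched 9 members and 16.179% of promoters. In the 30 bases around the match (GRCr8, chr4:104749255-104749284, plus strand) capitals mark the repeat, which lies on the minus strand at -77 to -65 from the start. Fabp1 itself was dim on these arrays, at 2.3 to 133.8 with a median of 5.5.
Fabp1: acaatcacTGACCTATGGCCTatatttgag

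Of the 3 genes of the carnitine shuttle, Cpt1a and Cpt2 fell in young kidney and Cpt1b did not pass the threshold over all arrays. Without the 2 arrays of high GAPDH ratio Cpt1b was lower in mature kidney (-0.29, limma adjusted p = 0.0304). Cpt1a, the enzyme that commits long-chain acyl groups to mitochondrial entry, had medians of 1778 in immature, 1253 in young, 1330.5 without a stage word and 1564 in mature kidney. It was 1.43-fold lower in young kidney (limma adjusted p = 0.0169) and 1.44-fold lower without a stage word (adjusted p = 0.00931). Cpt2, which returns the acyl group to CoA inside the mitochondrion, was 1.34-fold lower in young kidney (limma adjusted p = 0.00663). Neither differed with batch as a block (adjusted p = 0.369 and 0.211 in young kidney). Inside batch 2 the fall of Cpt2 was called (-0.29, adjusted p = 0.0107) and that of Cpt1a was not (-0.28, adjusted p = 0.486).

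Among 6 acyl-CoA synthetases tested, Acsl3, which activates long-chain fatty acids, was the only one called over stages on all arrays. It was 1.39-fold lower without a stage word (limma adjusted p = 0.00461) and 1.27-fold lower in mature kidney (adjusted p = 0.0413). Both differences were called with batch as a block, at -0.68 and -0.47, but without the 2 arrays of high GAPDH ratio the mature difference was -0.27 (adjusted p = 0.116). A second Acsl3 probe set gave -0.09 in mature kidney and 0.17 without a stage word and was not called. Acsm2, a medium-chain synthetase, and Acsl1, Acsl4 and Acsl5, all long-chain enzymes, did not pass the threshold in any stage comparison over all arrays. Inside batch 2, Acsl4 was lower without a stage word than in immature kidney (-0.49, limma adjusted p = 0.00201) and young kidney (-0.53, adjusted p = 0.00303). Without the 2 arrays of high GAPDH ratio, Acsl1 was lower without a stage word (-0.32, adjusted p = 0.0436) and Acsm2 higher in young kidney (0.20, adjusted p = 0.0455).

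Hadha, the alpha subunit of the trifunctional protein that carries out successive steps of mitochondrial beta-oxidation, was higher in every later group over all arrays. Its intensity was 1935 to 3980.2 in immature kidney (median 2619), 2568 to 4825 in young kidney (median 3624), 3424 to 5683 without a stage word (median 3987) and 2712 to 5410.4 in mature kidney (median 3972). All 14 arrays without a stage word and all 14 mature arrays exceeded the immature median, and 7 of each exceeded the highest immature array. The rise was 1.37-fold in mature kidney (log2 0.46 ± 0.11 SE, limma adjusted p = 0.00103), 1.40-fold without a stage word (adjusted p = 0.000482) and 1.24-fold in young kidney (adjusted p = 0.0295). The other Hadha probe sets gave 0.42 and 0.63 in mature kidney, but -0.07 and 0.76 in young kidney, where they differ in sign. Without a stage word they gave 0.17, which was not called (limma adjusted p = 0.341), and 0.79. Inside batch 1 the mature difference was -0.03 (adjusted p = 0.972). The block gave 0.24 in mature kidney (adjusted p = 0.145) and 0.18 in young kidney (adjusted p = 0.316), neither of them called. Without a stage word it remained called with the block (0.35, adjusted p = 0.0150) and inside batch 2 (0.57, adjusted p = 8.87e-06). Hadhb, the beta subunit of the same protein, was not called in any of the 6 comparisons.

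Eci1, which shifts double bonds so that unsaturated chains can be oxidised, was highest in mature kidney. It read 1556 to 4668 there (median 2489), 1207 to 2422 in immature kidney (median 2200.0), 1335 to 2518 in young kidney (median 1675) and 1293 to 2402 without a stage word (median 1978). The 4 mature arrays of batch 1, at 3214 to 4668, lay above all other arrays of the series, and the mature arrays of batch 3 read 1556 to 2656. The rise was 1.58-fold over young kidney (limma adjusted p = 0.000159), 1.29-fold over immature kidney (adjusted p = 0.0157) and 1.39-fold over kidney without a stage word (adjusted p = 0.0440). Other Eci1 probe sets gave -0.04 and 0.24 against immature kidney and were not called. Inside batch 3 the difference from young kidney was 0.39 and did not pass (adjusted p = 0.372).

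Decr1, which reduces double bonds of unsaturated chains in mitochondria, was 1.40-fold lower in young kidney (limma adjusted p = 0.00560) and 1.36-fold lower without a stage word (adjusted p = 0.00789). Both were smaller with the batch block, at -0.26 and -0.21, and were not called. A second Decr1 probe set gave -0.25 in young kidney and -0.41 without a stage word over all arrays and was not called. Acads, the short-chain acyl-CoA dehydrogenase, was 1.33-fold higher in mature kidney (adjusted p = 0.0116), with medians of 700.0 against 500.4, and was not called with the block (adjusted p = 0.107). Hadh, a short-chain hydroxyacyl-CoA dehydrogenase, was 1.68-fold higher without a stage word (adjusted p = 0.0161), at 30.4 to 119.8 against 9.6 to 105 in immature kidney. It too was not called with the block (adjusted p = 0.147).

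Etfa passes electrons from the acyl-CoA dehydrogenases to Etfdh and so to the respiratory chain. Its level differed between batches within immature and within young kidney. Batch took up 33.6% of its variance and stage 26.1%. Immature arrays read 1014 to 1531 in batch 1 and 2527 to 3131 in batch 2, with no overlap within this 1 stage. Young arrays read 2306 to 2517 in batch 2 and 816 to 1484 in batch 3, again without overlap. Mature replicates 1 and 9, which had the high GAPDH ratios, read 128.5 and 184.3, and the next lowest mature array 715. Etfa was 2.04-fold lower in mature than in immature kidney (limma adjusted p = 0.00306), and a second probe set gave -1.06 against -1.03. The difference was -0.62 without those 2 arrays (adjusted p = 0.0127), -0.64 with batch as a block (adjusted p = 0.116) and -0.26 inside batch 1 (adjusted p = 0.574). Without a stage word Etfa was 1.68-fold lower (adjusted p = 0.0293), and inside batch 2 it was lower by 1.12 on the log2 scale (adjusted p = 2.80e-05). Etfdh was 1.36-fold lower without a stage word (adjusted p = 0.0168), at 0.01 in a second probe set that was not called. The block gave -0.31 for Etfdh, which was not called (adjusted p = 0.144).

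Acadsb, a short and branched-chain acyl-CoA dehydrogenase, showed the largest share of variance between batches of all 46 members, 72.5% against 7.5% between stages. It read 5.7 to 26.6 on the 10 arrays of batch 1, 10.7 to 495 in batch 2 (median 288) and 11.1 to 214 in batch 3 (median 37.4). No stage comparison of Acadsb over all arrays passed the threshold. Batch took up a larger share of variance than stage for 28 of the 46 members, and for 4324 of the 6555 probe sets tested.

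**Figure D3:**
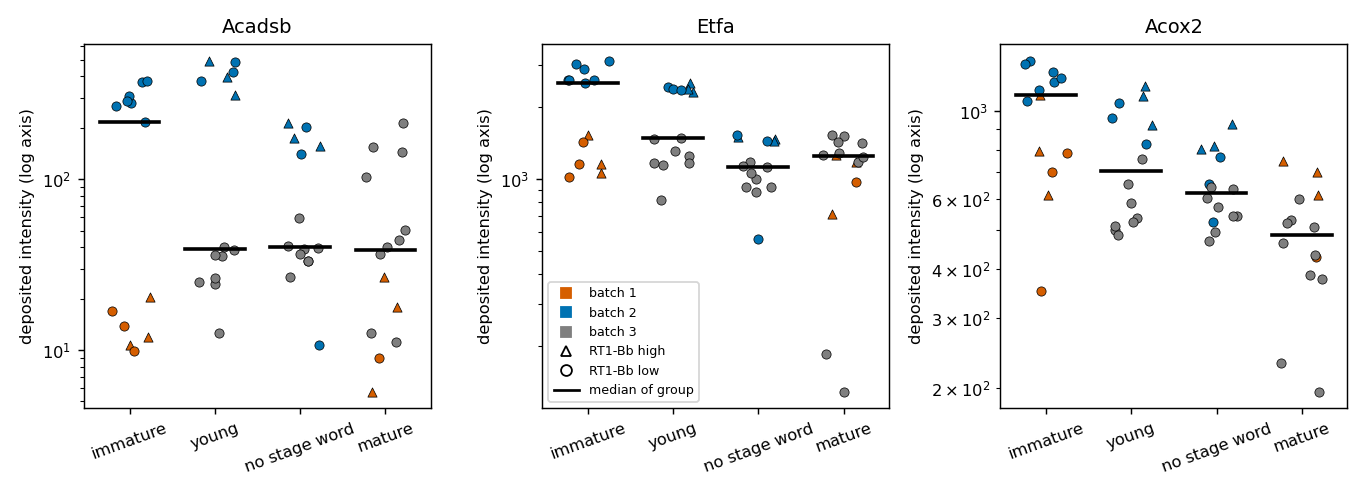
Deposited intensity of Acadsb, Etfa and Acox2 on log axes for each array by stage description, coloured by batch and shaped by RT1-Bb set, with the group median as a line. Within the immature group the batch 1 arrays of Acadsb (9.9 to 20.5) and Etfa (1014 to 1531) lie apart from the batch 2 arrays (217 to 377 and 2527 to 3131).

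Of the peroxisomal enzymes, Acaa1b, a thiolase that ends each round of chain shortening, was lowest in young kidney. It read 428 to 677 there (median 500.0), 642 to 1101 in immature kidney (median 781), 539 to 911 without a stage word (median 654) and 655 to 1722 in mature kidney (median 793). In young kidney 13 of 14 arrays lay below the lowest immature array. The level was 1.64-fold lower in young than immature kidney (log2 -0.72 ± 0.11 SE, limma adjusted p = 4.53e-06) and 1.67-fold higher in mature than young kidney (adjusted p = 7.26e-06). Both differences were called with batch as a block (-0.65 and 0.74), the first inside batch 2 (-0.71, adjusted p = 8.58e-05) and the second inside batch 3 (0.69, adjusted p = 0.00467). Without a stage word Acaa1b was 1.26-fold lower than in immature kidney (adjusted p = 0.0221), a difference not called with the block. A near-identical gene, Acaa1a, shares a sister probe set with Acaa1b, so the 2 thiolases may not be separated here.

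Acox2, an oxidase of branched chains and bile acid intermediates, had medians of 1099 in immature, 707 in young, 621 without a stage word and 487 in mature kidney. Its ranges were 352 to 1341, 486 to 1156, 469 to 927 and 196 to 750.4 in the same order, so all groups overlapped. It was 2.02-fold lower in mature than immature kidney (log2 -1.01 ± 0.18 SE, limma adjusted p = 2.07e-05), 1.47-fold lower without a stage word (adjusted p = 0.0153) and 1.56-fold lower in mature than young kidney (adjusted p = 0.0378). The 2 lowest arrays, at 195.9 and 231.7, were mature replicates 1 and 9, and without them the fall against immature kidney was 0.84 on the log2 scale (adjusted p = 0.000108). It was -0.57 with the batch block (adjusted p = 0.0116), and inside batch 1 it was -0.17 (adjusted p = 0.832). Without a stage word the block gave -0.37, which was not called (adjusted p = 0.102). The difference from young kidney was lost with the block (adjusted p = 0.150) and without the 2 arrays (adjusted p = 0.186).

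Cat, the catalase that removes the hydrogen peroxide that peroxisomal oxidases make, was 1.50-fold higher in mature kidney than in immature kidney (limma adjusted p = 0.0377). Its other probe sets gave -0.04 and 0.36 and were not called, and the difference was not called with the block (adjusted p = 0.347) or without the 2 arrays of high GAPDH ratio (0.56, adjusted p = 0.0540). Hsd17b4 and Ehhadh, the multifunctional enzymes of the middle steps, and Decr2 and Ech1, which handle double bonds, were not called in any of the 6 stage comparisons over all arrays. Without the 2 arrays of high GAPDH ratio, Ehhadh was higher in mature kidney than in immature (0.48, limma adjusted p = 0.00862), young (0.56, adjusted p = 0.0242) and no-stage-word kidney (0.67, adjusted p = 0.00924). Inside batch 2 it was lower without a stage word than in immature kidney (-0.49, adjusted p = 0.00988), as were Hsd17b4 (-0.42) and Decr2 (-0.81), and Ech1 was higher (0.27). Acox3 was dim, at 6.4 to 31.4.

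Among 7 peroxins tested, Pex5, the receptor that carries most matrix enzymes into the peroxisome, was lower in each later group. It read 558 to 870.5 in immature kidney (median 732), 382 to 667 in young kidney (median 497), 251 to 583 without a stage word (median 454) and 349 to 860.1 in mature kidney (median 498). Below the lowest immature array lay 13 of 14 arrays without a stage word, 10 of 14 young and 10 of 14 mature arrays. The fall was 1.63-fold without a stage word (log2 -0.71 ± 0.11 SE, limma adjusted p = 2.57e-06), 1.39-fold in young kidney (adjusted p = 0.00164) and 1.31-fold in mature kidney (adjusted p = 0.00655). With batch as a block the falls without a stage word (-0.61) and in young kidney (-0.38) were called and that in mature kidney was not (-0.24, adjusted p = 0.206). Pex2, a ring-finger protein that recycles the receptor, was 1.44-fold lower in mature kidney (adjusted p = 0.00713), or lower by 0.31 on the log2 scale without the 2 arrays of high GAPDH ratio (adjusted p = 0.0125). Pex6, Pex10, Pex11a, Pex14 and Pex19 were not called in the fit of all arrays without the block. The block called Pex6 higher in mature kidney (0.59, limma adjusted p = 0.0477) and Pex14 higher without a stage word (0.31, adjusted p = 0.0481). Inside batch 2 and without a stage word, Pex6 (0.73) and Pex14 (0.40) were higher than in immature kidney and Pex11a (-0.68) was lower, with adjusted p-values of 0.00151, 0.00629 and 0.000715.

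Of 3 thioesterases, which release free fatty acids from acyl-CoA, Acot1 was called. It read 1250.2 to 2465 in immature kidney (median 1983), 1275 to 1776 in young kidney (median 1511), 643 to 1676 without a stage word (median 1259) and 1289.5 to 2268 in mature kidney (median 1544). All 14 young arrays and all 14 arrays without a stage word lay below the immature median. The level was 1.55-fold lower without a stage word (log2 -0.63 ± 0.11 SE, limma adjusted p = 2.48e-05) and 1.25-fold lower in young kidney (adjusted p = 0.0394). With the block the first was called (-0.59, adjusted p = 0.000372) and the second was not (-0.28, adjusted p = 0.162). Acot2, a mitochondrial relative with a shared probe set, and Acot7 were not called over all arrays, nor were the acetoacetyl-CoA thiolases Acat1 and Acat2. Inside batch 2 Acot7 was higher in young than immature kidney (0.36, limma adjusted p = 0.00261).

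The 3 later groups differed little from each other over all arrays. Mature against young kidney called Acaa1b and Eci1 higher and Acox2 lower (0.610% and 1.19% of all probe sets). Mature kidney against kidney without a stage word called Eci1 (1.39-fold) and Acot1 (1.37-fold, limma adjusted p = 0.0442), both higher and 0 members lower (0.198% and 0.214% of all probe sets). Kidney without a stage word against young kidney called 0 members in limma (background 0.229%), with 8 at an unadjusted p under 0.05. Inside batch 2 the same comparison called 16 members, 5 higher and 11 lower (background 27.1%), and inside batch 3 it called 0 of 46 and 0% of all probe sets. The 16 included Acadsb at -1.63, Etfa at -0.92 and Acadm, the medium-chain dehydrogenase, at -0.82. Within batch 2 the 5S ribosomal RNA control read 166.1 to 278.5 on young arrays and 402.8 to 537.0 on arrays without a stage word. Immature arrays of batch 2 read 318.0 to 686.5. A control thus differed between young arrays and the others of this batch, and its part was not tested. Inside batch 2 and against immature kidney, 13 members were called in young kidney (background 29.3%) and 26 without a stage word (43.4%). Inside batch 1, mature against immature kidney called 0 members in limma (background 0.717%), with 7 at an unadjusted p under 0.05.

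Between the RT1-Bb sets, with stage as a covariate, 2 of 46 members were called (background 9.14%), Acsm3 lower and Acox2 higher on RT1-Bb high arrays. Acsm3, a medium-chain acyl-CoA synthetase also known as the SA gene, was first described for kidney expression that differs between hypertensive and normotensive rats. It read 30.6 to 526 on the 12 high arrays (median 196) and 108 to 4427 on the 43 low arrays (median 1926). In young kidney of batch 2 it read 177 to 526 on 3 high and 3709.5 to 4427 on 3 low arrays. Without a stage word in batch 2 it read 199.9 to 241 on 3 high and 1283 to 3085 on 3 low arrays. In immature kidney of batch 1 it read 30.6 to 277 on 3 high and 523 to 1008 on 3 low arrays, so the sets did not overlap in any of these cells. In mature kidney of batch 1 the 3 high arrays read 62.1 to 192 and the 1 low array 750.5.

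Acsm3 was 7.57-fold lower on RT1-Bb high arrays (log2 -2.92 ± 0.39 SE, limma adjusted p = 1.13e-07) and 8.16-fold lower with batch as a block (adjusted p = 4.33e-06), where it was the only member called (background 2.09%). Inside batch 2 the difference was -3.33 (limma adjusted p = 3.49e-08), and inside batch 1 it was -2.58 and missed the threshold (adjusted p = 0.0543). Not all low arrays were bright. Of the 26 low arrays of batch 3, 21 read 836 to 2962, and the other 5 read 108 to 302, within the range of the high arrays. These 5 were mature replicates 1 and 9, replicates 3 and 11 without a stage word, and young replicate 10. Stage comparisons of Acsm3 over all arrays were not called, and RT1-Bb set took up 48.6% of its variance.

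**Figure D4:**
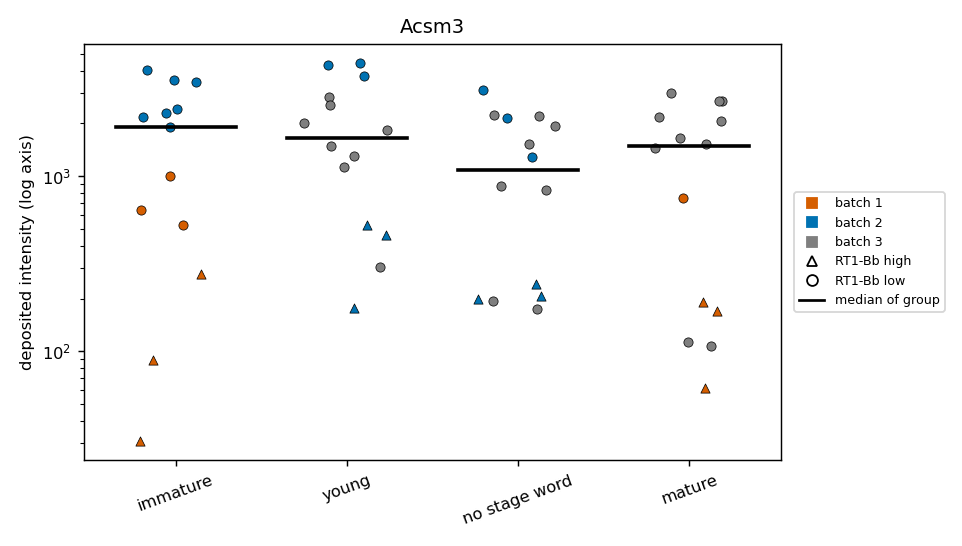
Deposited intensity of Acsm3 on a log axis for each of the 55 arrays by stage description, coloured by batch, with triangles for RT1-Bb high and circles for RT1-Bb low arrays, and the group median as a line. All 12 triangles lie at or below 526, together with 5 grey circles of batch 3 and 1 immature circle of batch 1 at 523.

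The 250 bases before the Acsm3 start in RefSeq (GRCr8, chr1:183564402-183564651, plus strand) are shown because Acsm3 had the smallest p-value of the members between the RT1-Bb sets. They hold 44.4% G and C and 1 copy of AGGTCA, in capitals, at -49 to -44 from the start. This is the reference sequence, not that of the rats measured.
Acsm3: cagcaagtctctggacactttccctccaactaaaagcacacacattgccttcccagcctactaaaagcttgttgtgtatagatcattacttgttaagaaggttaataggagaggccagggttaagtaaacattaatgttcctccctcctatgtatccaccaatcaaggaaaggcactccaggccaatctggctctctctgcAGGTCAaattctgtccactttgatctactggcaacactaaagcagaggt

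Hsd17b4 was the other member whose high and low arrays did not overlap in the same direction in immature kidney of batch 1 and in both batch 2 groups (background 1.36% of probe sets). It read 2255 to 3182 on high and 1607 to 2101 on low arrays in immature kidney, 2953 to 3160.1 and 2236 to 2595 in young kidney, and 2692 to 3574 and 1659 to 1777 without a stage word. High arrays were thus brighter in each cell, and the 1 low mature array of batch 1 (1522) also lay below its 3 high arrays (2666 to 3345). Inside batch 2 Hsd17b4 was higher by 0.58 (limma adjusted p = 0.00155), while over all arrays the difference was 0.19 (adjusted p = 0.561) and with batch as a block 0.57 (adjusted p = 0.228). Low arrays of batch 3 read 534 to 4536. These values are of the brightest of 4 Hsd17b4 probe sets, and the others were not compared between the sets on their own.

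Pex6, an ATPase that pulls the import receptor back out of the membrane, was lower on high arrays inside batch 2 by 0.57 on the log2 scale (limma adjusted p = 0.00520). Its matched cells read 211 to 270.2 on high and 296 to 538 on low arrays in immature kidney, and 176 to 215 and 311 to 376 in young kidney. Without a stage word they overlapped, at 258 to 303 and 289.8 to 408. With batch as a block the difference was -0.62 (adjusted p = 0.0532). Pex6 has 2 probe sets, and only the brighter was compared on its own. Inside batch 2 a total of 6 members were called (background 4.44%), the others being Acsl3 at 0.48, Ehhadh at 0.43 and Acat2 at -0.35. Inside batch 1, 0 members were called in limma (background 0.366%), with 5 at an unadjusted p under 0.05.

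Acox2 read 614 to 1156 on high arrays (median 811) and 196 to 1341 on low arrays (median 572) and was 1.34-fold higher on high arrays (limma adjusted p = 0.0400). The batch block gave 0.34, which was not called (adjusted p = 0.425). The next smallest p-values belonged to Acot7 (482 to 1326 on high, 719 to 2820.3 on low arrays), Acsl1 (536 to 1162 and 284 to 976), Fabp6 (0 to 5761 and 2759 to 11799) and Acaa2, a mitochondrial thiolase (2786 to 4655 and 2026 to 6016). In these 4 members high and low arrays overlapped and limma adjusted p-values were 0.0736, 0.158, 0.172 and 0.212.

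**Figure D5:**
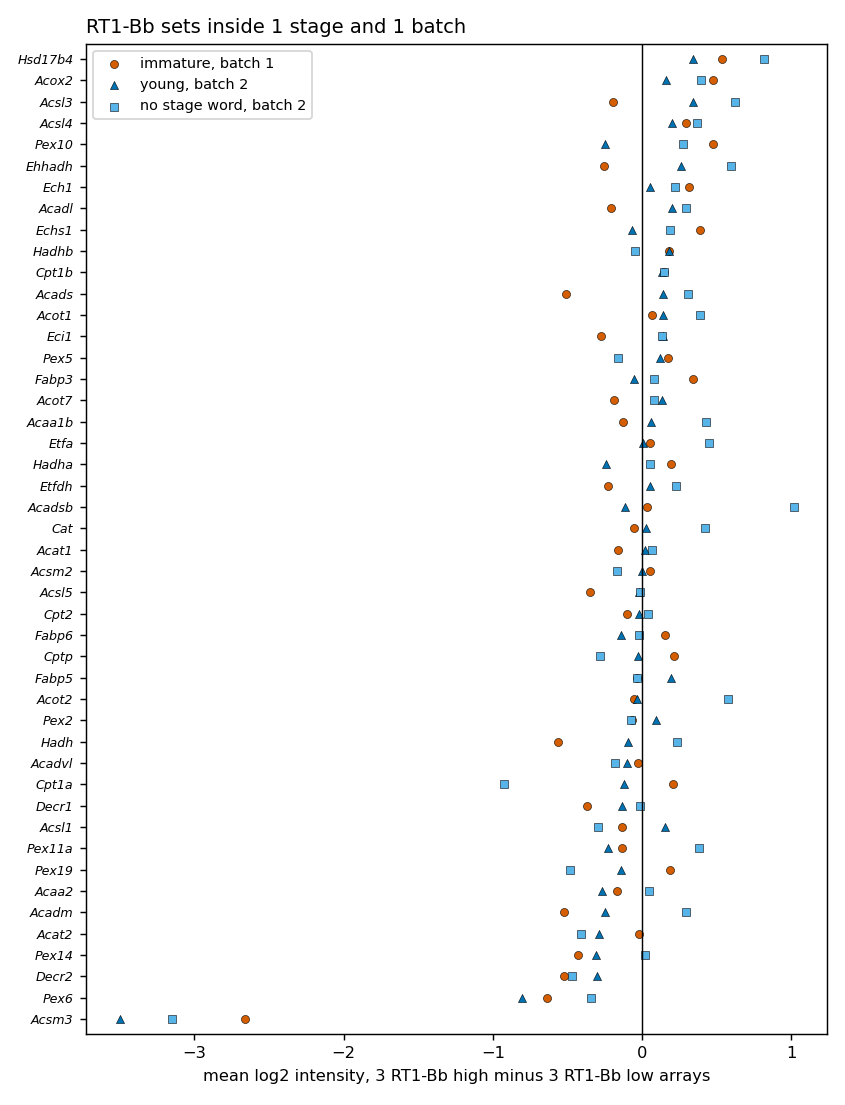
Mean log2 intensity of 3 RT1-Bb high minus 3 RT1-Bb low arrays for the 46 members tested, inside immature kidney of batch 1 and inside young kidney and kidney without a stage word of batch 2. Acsm3 lies at -2.66, -3.50 and -3.15, apart from every other member, and Hsd17b4 lies at 0.54, 0.34 and 0.81.

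Stage differences were also fitted within each RT1-Bb set. Among RT1-Bb low arrays, against 10 immature ones, mature kidney had 12 members called (background 31.0%), young kidney 10 (21.7%) and kidney without a stage word 15 (32.2%). On the high arrays, 3 against 3, mature kidney had 4 called (background 2.91%), young kidney 2 (5.87%) and kidney without a stage word 2 (4.44%). Fewer high arrays gave less precision, and the sets were spread differently over the batches, so these counts do not show that the sets differ. The difference between the sets was itself called for 3 members in mature against immature kidney (background 1.82%) and 3 in young against immature kidney (3.30%). High immature and high mature arrays were all of batch 1, and high young arrays all of batch 2. Low immature arrays were 3 of batch 1 and 7 of batch 2. Batch 3, which held no immature array, gave 10 low mature arrays, 8 young and 8 without a stage word. Stage and batch were therefore mixed on the low arrays as well.

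Genes around the pathway were read from further lists, against the background shares of all probe sets given above for each comparison (10.3% higher and 14.1% lower in mature kidney). Of the PPAR receptors, their RXR partners and coactivators, 9 of 13 were tested, and in each later group 1 was higher and 0 lower than in immature kidney. Rxra, a partner of PPAR-alpha, was higher in young kidney (log2 0.81, limma adjusted p = 0.00846) and without a stage word (0.68). Both calls were lost with batch as a block (adjusted p = 0.194 and 0.321). The block still gave 1 gene of this list higher and 0 lower in each later group, a gene other than Rxra in these 2. Ppara did not pass the F test (adjusted p = 0.118). Of genes of fatty acid uptake, triglyceride and ketone body handling, 17 of 25 were tested, with 4 higher and 2 lower in mature kidney. Acaca, which makes malonyl-CoA, the inhibitor of Cpt1, was higher by 0.57, and Slc22a5, the carnitine transporter, by 0.38. Bdh1, a ketone body enzyme, was lower by 0.71 and Dbi, an acyl-CoA carrier, by 0.64. Under the batch block 3 were higher and 1 lower, and the calls of Acaca (limma adjusted p = 0.121) and Dbi (0.378) were lost.

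Omega-oxidation, which starts at the other end of the chain in the endoplasmic reticulum, had 7 of 12 genes tested and 3 higher and 0 lower in mature kidney. The hydroxylases Cyp4a8 and Cyp4f1 were higher by 0.41 and 0.42 there. Young kidney had 2 genes of this list higher and 2 lower (9.47% and 9.21% of all probe sets), or 2 and 1 with the block. The 2 lower ones were Cyp4a1 and Cyp4a3, which PPAR-alpha is known to induce, at -0.49 and -0.78. The block ended the calls of Cyp4f1 in mature kidney (limma adjusted p = 0.157) and Cyp4a1 in young kidney (0.248), and Cyp4a3 stayed called at -1.06. Other peroxisomal enzymes and transporters had 19 of 38 tested, with 1 higher and 2 lower in mature kidney. Pxmp2, a channel of the peroxisomal membrane, was lower by 0.41 and was also called with batch as a block, and Dao, an amino acid oxidase, was higher by 0.46, or by 0.21 and not called with the block (adjusted p = 0.242). Between the RT1-Bb sets this list had 2 higher and 1 lower (9.14% of all probe sets called either way), and Ephx2, an epoxide hydrolase found in peroxisomes and cytosol, was higher by 1.02, or by 1.38 with batch as a block.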

How the data were processed

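Kidney RNA of 55 samples was read from the deposited intensity per probe set on a linear scale, as the values show; how probes were summarised and scaled by the authors was not given in the sources used. Symbols came from the platform annotation (7018 probe sets with 1 symbol, 308 with several, 1473 with none), updated through RefSeq GRCr8 where possible (6994). Before log2 was taken, 15.82 (0.1 of the overall median) was added to each value. The 59 control probe sets and those whose mean lay under the 25th percentile were left out, leaving 6555. limma 3.58.1 in R 4.3.3 (lmFit, eBayes) fitted the 4 stage descriptions, with a moderated F test and 6 contrasts; RT1-Bb sets were fitted with stage as covariate, leaving out the RT1-Bb probe set. Tests were 2-sided with Benjamini-Hochberg adjustment and a threshold of 0.05. Batches came from a Ward tree of 42 control probe sets, set to 3. Named genes were members past the threshold, with ranges for the 8 smallest F p-values and the 6 smallest RT1-Bb p-values; others, such as Etfa, Acadsb, Hsd17b4 and Pex6, were added after their values were seen. Members and gene lists were chosen with earlier results of these data known. The fits were tested on simulated data. The number of arrays limits the precision, and no background signal was used.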

Additional observations from a re-analysis of the deposited data

Results flagged for a closer look

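For 5 members the stage difference itself differed between the RT1-Bb sets, by limma's test of that difference with adjustment over all probe sets. Hadha in mature against immature kidney differed by -0.88 (adjusted p = 0.0154), at -0.23 on high and 0.65 on low arrays, and in young against immature kidney by -0.79 (adjusted p = 0.0314). Acot7 in mature against immature kidney differed by -1.16 (adjusted p = 0.0222), at -0.72 on high and 0.44 on low arrays. Fabp6 differed by -3.51 in the same comparison (adjusted p = 0.0294). Without mature replicate 12, which read 0, the Fabp6 value was -0.75 (adjusted p = 0.311). Acadsb in young against immature kidney differed by 4.65 (adjusted p = 0.0164), and Acadl, the long-chain acyl-CoA dehydrogenase, by 1.29 (adjusted p = 0.0370).

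With batch as a block none of these 6 differences was called: the adjusted p-values were 0.0815 and 0.783 for Hadha, 0.145 for Acot7, 0.0858 for Fabp6, 0.971 for Acadsb and 0.866 for Acadl. Acadsb was 4.65 without and 0.72 with the block. Each difference also lost its call when single arrays were left out, from 2 arrays for Acadsb (young replicates 1 and 14) and for Hadha in mature kidney (mature replicates 4 and 12) to 11 for Acadl. For Acot7 these were immature replicates 1 and 3 and mature replicate 8, and for Fabp6 immature replicates 1, 2 and 3 beside mature replicate 12. For Hadha in young kidney they were immature replicates 1 and 2 and young replicates 1, 2 and 14. High immature arrays lie in batch 1 and high young arrays in batch 2, so on high arrays batch and stage cannot be told apart in that comparison.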

How the results depend on the processing

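No paired analysis was possible because the labels give the groups no shared replicate numbers. Over all 46 members, called counts with the settings of the report were 16 (F test), 11 (mature against immature), 9 (young against immature), 13 (no stage word against immature), 3 (mature against young), 0 (no stage word against young), 2 (mature against no stage word) and 2 (RT1-Bb sets). A larger offset, quantile normalization, a trended robust prior and an RT1-Bb block kept every count within 1.5 times. Array weights raised the counts, in the same order, to 30, 24, 20, 27, 5, 3, 3 and 12. The share of all probe sets called with array weights was not counted, so this rise is not a result about the members. Batch as a block gave 7 in mature and 4 in young against immature kidney, 4 in mature kidney against no stage word and 1 for the RT1-Bb sets. The following fits, and the leave-one-out of the differences between RT1-Bb sets, were chosen after seeing the data. Batch and RT1-Bb set as blocks gave 6, 3 and 4 in the first 3 of these comparisons, and the batch block without the 2 arrays of high GAPDH ratio gave 4 for no stage word against young, 11 for mature against no stage word and 3 for the RT1-Bb sets.

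Mature against no stage word gave 0 with no filter, 1 with the mean of all probe sets of a gene and 0 with only the groups compared. Fits of only the groups compared also gave 7 in mature against immature kidney and 1 in no stage word against young kidney. Inside batch 1, 0 were called for mature against immature kidney and for the RT1-Bb sets, and the Hadha difference turned to -0.0262; the cause was not tested, and fewer arrays entered these fits. Inside batch 2 the counts were 26 (no stage word against immature), 16 (no stage word against young) and 6 (RT1-Bb sets), and inside batch 3 they were 1 (mature against young) and 0 (mature against no stage word). At least 1 of the 6 stage contrasts called 22 members on RT1-Bb low and 8 on high arrays, with 5 differing between the sets, and with batch as a block these were 11, 4 and 1. Leaving out the 2 arrays of high GAPDH ratio gave 18 on high arrays and 9 differing. Both of these arrays are RT1-Bb low, so the differences on high arrays stayed the same and only the shared estimate of spread changed. For these counts over the 6 contrasts the share of all probe sets was not taken, so they are not a result about the members.

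Leaving out each array in turn gave 0 to 2 for mature against no stage word, 1 to 3 for the RT1-Bb sets, 9 to 13 for mature against immature and 14 to 18 for the F test. Hadha in young kidney lost its call without immature replicates 6 or 13 or young replicates 10 or 12. Etfa without a stage word lost it without immature replicates 7, 10 or 12 or replicate 9 of its own group. Acox2 between the RT1-Bb sets lost it without young replicates 1, 2 or 14, replicates 4, 8 or 12 without a stage word, or mature replicates 4, 8 or 12. Acox2 in mature against young kidney lost it without young replicates 1, 2, 3, 4, 13 or 14 or mature replicates 1, 5 or 9. Cat in mature kidney lost it without immature replicates 1, 2, 7 or 8 or mature replicates 2, 6, 9, 11 or 14. The most easily lost calls were Acsl3 in mature kidney (lost without any 1 of 12 arrays) and Acot1 in young kidney (14). In mature kidney against no stage word, Eci1 (14) and Acot1 (20) were as easily lost, also without arrays outside the groups compared. Calls of Fabp3, Fabp5, Acaa1b, Pex5 and Acsm3 were not lost in any of the 55 fits. The same held for Acads, Cpt1a, Cpt2, Decr1, Etfdh, Hadh and Pex2, and for some calls of Eci1, Etfa, Acox2, Hadha, Acsl3 and Acot1.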

Other observations

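Lpl, the lipase that frees fatty acids from circulating triglycerides, and Bdh1 were higher on RT1-Bb high arrays with batch as a block, by 1.42 and 0.68 on the log2 scale (limma adjusted p = 3.02e-05 and 3.62e-05), and neither was called without it. Rxrg, a partner of PPAR, was higher on high arrays by 0.75 without the block and was not called with it. Of 12 proximal tubule markers tested, 0 were higher and 3 lower on high arrays, and 0 were called with the block.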
